A study of Mus musculus with 8 samples.

Results

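Moxd1, Cyp7b1, Elovl3, Hsd3b5, Cyp4a12a, Cyp4a12b, Slco1a1, Selenbp2, Cyp2d9 and Susd4 are 10 liver genes known as dependent on pulses of growth hormone, out of 25690 genes in the deposited table. They were picked by name with their knockout and wildtype levels in these libraries already known, so every difference between the genotypes given for them is a description and carries no test. The libraries were made from liver of hepatic FOXO1 knockout mice (4 libraries, numbered 3, 9, 10 and 11 in their titles) and of wildtype control mice (4 libraries, numbered 1, 3, 10 and 12). FOXO1, encoded by Foxo1, is a forkhead transcription factor that insulin signalling inactivates. The labels do not give the strain, sex, age, feeding state or time of collection, nor the deletion strategy or its driver. Whether libraries within a group stem from different animals is not labelled, and p-values measure only the spread among these libraries.

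In rodents the pituitary releases growth hormone in regular pulses in males and almost continuously in females. Each pulse acts through the growth hormone receptor and the kinase JAK2 to activate the transcription factor STAT5b in hepatocytes, and the intervals between pulses let STAT5b switch off again. Male-biased liver genes such as the cytochrome P450 genes Cyp4a12a and Cyp2d9 need this on and off pattern, while female-biased genes such as Cyp2a4 and Cyp3a16 are repressed by it. BCL6 and CUX2 are transcriptional regulators that act with this system in the male and in the female liver. The table holds neither hormone levels nor a comparison of the sexes, so dependence on pulses is background here and was not measured.

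The 8 libraries had an estimated depth of 27.0 M to 35.3 M fragments. Values are FPKM, fragment counts divided by transcript length and library depth. Foxo1 averaged 0.269 ± 0.0743 FPKM in knockout and 3.35 ± 0.341 FPKM in wildtype liver (SD, n = 4 each). The Y-linked gene Ddx3y lay between 8.69 and 13.4 FPKM in knockout and between 10.6 and 12.3 FPKM in wildtype libraries. Eif2s3y, Kdm5d and Uty, also Y-linked, were above 1 FPKM in every library, and Xist was at most 0.12 FPKM in knockout and at most 0.04 FPKM in wildtype libraries. Hepatocyte genes were high in every library, except that Alb was listed at 0 in knockout 10. Knockouts 3 and 11 stood apart in acute phase transcripts: Saa1, a serum amyloid gene, was at 28413 and 33012 FPKM in them, against 573 and 266 FPKM in knockouts 9 and 10 and 78.3 to 195 FPKM in wildtype. The neutrophil gene S100a8 reached 31.4 FPKM (knockout 3) and 77.2 FPKM (knockout 11), with at most 3.19 FPKM elsewhere. The differences of the 10 genes are therefore given with and without these knockout libraries. The same holds for genes that passed the test among their relatives and among the male-biased, female-biased and growth hormone signalling lists below. In bulk liver RNA, fewer cells of a type and less RNA per cell cannot be told apart.

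Moxd1 encodes a copper-dependent monooxygenase-like protein related to dopamine beta-hydroxylase, and it had the widest separation of the 10 genes. The gene (ENSMUSG00000020000, protein-coding) lies on the plus strand at chr10:24223517-24302790 (mm10). The 250 bases before its start in RefSeq (GRCm38.p6, the mm10 assembly, chr10:24223267-24223516, plus strand) are shown because they hold a match to TTCNNNGAA, the letters of a STAT5 site, given in capitals.
Moxd1: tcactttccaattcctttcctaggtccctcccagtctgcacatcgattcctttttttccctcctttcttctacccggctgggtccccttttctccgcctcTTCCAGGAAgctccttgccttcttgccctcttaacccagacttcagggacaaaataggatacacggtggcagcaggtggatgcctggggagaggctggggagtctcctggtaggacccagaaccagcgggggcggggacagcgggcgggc
The match covers positions -150 to -142 from the start. A search of both strands found these letters in 8.3% of 32851 mouse windows of 300 bases, which reach from 250 bases before to 50 bases after a start. Of the 7 windows that RefSeq gave for 6 of the 10 genes, the 1 with a match was that of Moxd1. A match is a run of letters, not a measured binding site.

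Moxd1 was at 152, 125, 112 and 117 FPKM in knockouts 3, 9, 10 and 11, against 0.885, 7.05, 4.99 and 1.59 FPKM in wildtypes 1, 3, 10 and 12. The lowest knockout library was far above the highest wildtype library, and the groups did not overlap. The means were 126 ± 17.7 FPKM in knockout and 3.63 ± 2.90 FPKM in wildtype (SD, n = 4 each), a ratio of 34.8. On the log2(FPKM + 1) scale the difference, knockout minus wildtype, was 5.01, and 4.93 without knockouts 3 and 11. The spread was unequal: the SD on that scale was 0.19 among knockout and 0.99 among wildtype libraries, where wildtypes 3 and 10 stood above wildtypes 1 and 12. Under the other settings tried the difference ran between 4.24 and 5.49. Among the 10250 genes tested, those averaging 1 FPKM or more, the wildtype level of Moxd1 was at percentile 32.0, the lowest of the 10 genes. Its relatives Moxd2 and Dbh, which encodes dopamine beta-hydroxylase, were listed at 0 in all 8 libraries.

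**Figure D1:**
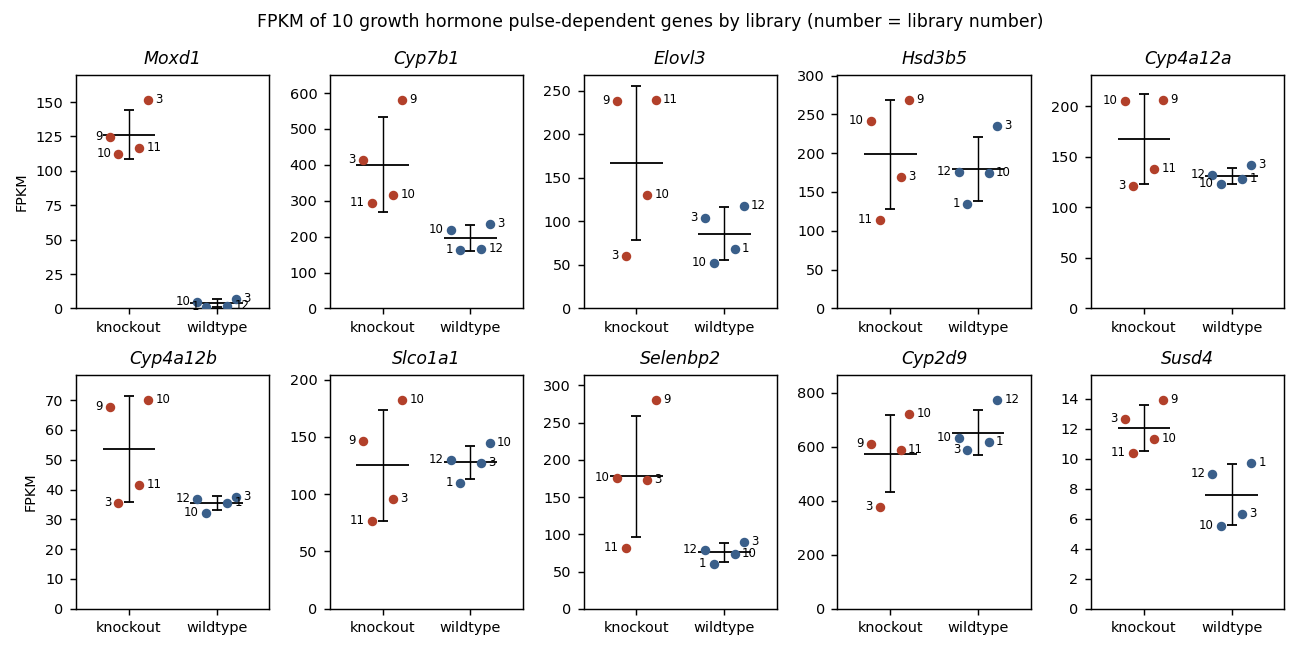
FPKM of the 10 genes (vertical axes, each from 0) in the 4 knockout and 4 wildtype libraries; points carry the library number, lines are group means and bars are SD. Moxd1, Cyp7b1 and Susd4 show no overlap of the groups, while Hsd3b5, Slco1a1 and Cyp2d9 have similar means.

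By the limma fit over all genes, 4 of the 10 genes were called higher in knockout (Moxd1, Susd4, Cyp7b1 and Selenbp2) and 0 lower. The same fit called 14.4% of the 10250 genes tested, 2.7% higher and 11.7% lower. Since the genes were picked with these values known, nothing is read from that count. In 3 of the 10 genes all knockout libraries lay above all wildtype libraries, as in 4.83% of all genes tested, and in the other 7 the groups overlapped. Over the 10 genes the median log2 difference was 0.57, and 0.52 without Moxd1, beside -0.08 over all genes tested. Leaving out knockouts 3 and 11 gave a median of 0.81 for the 10 genes, beside -0.01 over all genes. All 10 genes passed the filter of 1 FPKM. The fit called 277 genes higher and 1195 lower in all, but 485 and 720 with median-ratio scaling, 470 and 652 with quantile normalization, and 371 and 397 once the trend of the difference along transcript length was removed.

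Among the genes of sterol and lipid metabolism, Cyp7b1 and Elovl3 had higher means in knockout liver. Cyp7b1 (ENSMUSG00000039519, chr3:18071950-18243338, minus strand) encodes an oxysterol and steroid 7-alpha-hydroxylase of the alternative pathway of bile acid synthesis. It was at 412, 582, 316 and 292 FPKM in knockouts 3, 9, 10 and 11, against 164, 236, 220 and 166 FPKM in wildtypes 1, 3, 10 and 12. The groups did not overlap, and knockout 9 was the highest library. The means were 401 ± 132 FPKM in knockout and 196 ± 36.8 FPKM in wildtype, and the log2 difference was 0.99, or 1.14 without knockouts 3 and 11. Elovl3 (ENSMUSG00000038754, chr19:46131897-46135694, plus strand) encodes an elongase of very long chain fatty acids. Its FPKM was 60.01, 238, 130 and 240 in knockouts 3, 9, 10 and 11, against 68.7, 104, 52.3 and 118 in wildtypes 1, 3, 10 and 12. Knockout 3 lay within the wildtype range and the other knockout libraries above it. The means were 167 ± 87.9 FPKM in knockout and 85.6 ± 30.3 FPKM in wildtype, and the log2 difference of 0.83 moved to 1.10 without knockouts 3 and 11. Elovl3 overlaps Pitx3 on the other strand, and no source used here gives the strand setting of the counting.

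Hsd3b5, Cyp4a12a, Cyp4a12b and Cyp2d9 encode enzymes of steroids, fatty acids and foreign compounds, and their groups overlapped. Hsd3b5 (ENSMUSG00000038092, chr3:98618634-98630252, minus strand), of the 3-beta-hydroxysteroid dehydrogenase family, was at 169, 269, 242 and 115 FPKM in knockouts 3, 9, 10 and 11, against 134, 235, 174 and 175 FPKM in wildtypes 1, 3, 10 and 12. Both the highest and the lowest library were knockouts. The means were 199 ± 70.1 FPKM in knockout and 180 ± 41.7 FPKM in wildtype, and the log2 difference was 0.10, or 0.53 without knockouts 3 and 11. Cyp2d9 (ENSMUSG00000068086, chr15:82433437-82456845, plus strand), a male-biased steroid hydroxylase gene, was at 378, 609, 723 and 590 FPKM in knockouts 3, 9, 10 and 11, against 617, 587, 633 and 774 FPKM in wildtypes 1, 3, 10 and 12. Knockout 3 was the lowest library and the other knockouts lay within the wildtype range. The means were 575 ± 144 FPKM in knockout and 653 ± 82.9 FPKM in wildtype. The log2 difference of Cyp2d9 was -0.21, turning to 0.032 without knockouts 3 and 11 and to 0.13 with quantile normalization.

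Cyp4a12a (ENSMUSG00000066071, chr4:115299046-115332815) and Cyp4a12b (ENSMUSG00000078597, chr4:115411624-115439034), both on the plus strand, encode fatty acid omega-hydroxylases and are near-identical copies. Their coding sequences of 1524 bases differ at 23 positions, an identity of 98.49%, and share a longest identical run of 342 bases. Bases 668 to 727 of the coding sequence (RNA of GENCODE release M21 on mm10, plus strand) are shown as a stretch where fragments can be told apart, with the 4 differences in capitals.
Cyp4a12a: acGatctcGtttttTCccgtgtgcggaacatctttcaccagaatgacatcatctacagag
Cyp4a12b: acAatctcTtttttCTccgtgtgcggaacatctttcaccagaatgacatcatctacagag
Of the 2323 windows of 100 bases in the longest coding transcript of Cyp4a12a, 832 also occur in Cyp4a12b, so the split of reads between the copies is uncertain. Cyp4a12a was at 121, 206, 205 and 138 FPKM in knockouts 3, 9, 10 and 11, against 128, 142, 123 and 132 FPKM in wildtypes 1, 3, 10 and 12. Cyp4a12b was at 35.5, 67.7, 70.1 and 41.6 FPKM in the same knockouts, against 35.6, 37.6, 32.1 and 36.9 FPKM in the same wildtypes. For both genes knockouts 9 and 10 were the highest libraries, and knockout 3 was below wildtypes 1, 3 and 12, for Cyp4a12a also below wildtype 10. The wildtype libraries were close together, with SDs of 7.89 FPKM around 131 FPKM for Cyp4a12a and 2.42 FPKM around 35.5 FPKM for Cyp4a12b. The knockout means were 168 ± 44.5 FPKM and 53.7 ± 17.7 FPKM for these genes. The log2 difference of Cyp4a12a was 0.32, or 0.65 without knockouts 3 and 11, and that of Cyp4a12b was 0.52, or 0.94. The ratio of Cyp4a12a to Cyp4a12b was 3.42, 3.05, 2.93 and 3.32 in knockouts 3, 9, 10 and 11, and 3.59, 3.76, 3.83 and 3.57 in wildtypes 1, 3, 10 and 12. All 4 knockout ratios were below all 4 wildtype ratios, with the copies named as the authors' counting split them.

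Selenbp2 (ENSMUSG00000068877, chr3:94693556-94704413, plus strand) encodes a selenium-binding protein, and it also has a near-identical copy, Selenbp1. Their coding sequences of 1416 bases differ at 18 positions, an identity of 98.73%. Bases 397 to 456 are shown for the same reason (GENCODE M21, differences in capitals).
Selenbp2: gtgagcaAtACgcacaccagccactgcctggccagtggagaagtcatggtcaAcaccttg
Selenbp1: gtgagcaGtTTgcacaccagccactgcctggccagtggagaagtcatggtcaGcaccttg
Selenbp2 was at 173, 280, 175 and 82.0 FPKM in knockouts 3, 9, 10 and 11, against 59.9, 90.2, 74.0 and 79.4 FPKM in wildtypes 1, 3, 10 and 12. Knockouts 3, 9 and 10 were above every wildtype library, and knockout 11 lay within the wildtype range. The means were 178 ± 81.1 FPKM in knockout and 75.9 ± 12.6 FPKM in wildtype, a log2 difference of 1.11, or 1.55 without knockouts 3 and 11. Selenbp1 was at 170, 219, 165 and 117 FPKM in knockouts 3, 9, 10 and 11, against 129, 144, 142 and 171 FPKM in wildtypes 1, 3, 10 and 12. Its log2 difference was 0.17 (SE 0.18) and did not pass (limma adjusted p = 0.577). The ratio of Selenbp2 to Selenbp1 was 0.70 to 1.28 in knockout and 0.46 to 0.63 in wildtype libraries. The groups of ratios did not overlap, and 21.2% of the 100-base windows of Selenbp2 also occur in Selenbp1.

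Slco1a1 and Susd4 encode membrane proteins. Slco1a1 (ENSMUSG00000041698, chr6:141907282-141946962, minus strand), an organic anion uptake transporter gene, was at 95.6, 146, 182 and 76.2 FPKM in knockouts 3, 9, 10 and 11, against 110, 128, 144 and 130 FPKM in wildtypes 1, 3, 10 and 12. Knockouts 9 and 10 were above every wildtype library and knockouts 3 and 11 below every one. The means were therefore close, at 125 ± 48.3 FPKM in knockout and 128 ± 14.2 FPKM in wildtype. The log2 difference was -0.11 with all libraries and 0.36 without knockouts 3 and 11. It was also above 0 with median-ratio scaling (0.0015), with quantile normalization (0.14) and without knockout 11 alone (0.10). Susd4 (ENSMUSG00000038576, chr1:182763860-182896591, plus strand), which encodes a sushi domain protein that inhibits complement, was at 12.6, 13.9, 11.3 and 10.4 FPKM in knockouts 3, 9, 10 and 11, against 9.68, 6.30, 5.49 and 8.99 FPKM in wildtypes 1, 3, 10 and 12. The groups did not overlap, although knockout 11 was close to wildtype 1. The means were 12.1 ± 1.54 FPKM in knockout and 7.61 ± 2.03 FPKM in wildtype, a log2 difference of 0.62, or 0.69 without knockouts 3 and 11.

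The promoters of Selenbp2 and Slco1a1 are shown as those of the gene with the second largest difference of the 10 and of a gene whose sign depended on the libraries used. Both come from RefSeq (GRCm38.p6), at chr3:94693323-94693572 on the plus strand and at chr6:141946963-141947212 on the minus strand. Capitals mark TTTATA, the reverse complement of TATAAA.
Selenbp2: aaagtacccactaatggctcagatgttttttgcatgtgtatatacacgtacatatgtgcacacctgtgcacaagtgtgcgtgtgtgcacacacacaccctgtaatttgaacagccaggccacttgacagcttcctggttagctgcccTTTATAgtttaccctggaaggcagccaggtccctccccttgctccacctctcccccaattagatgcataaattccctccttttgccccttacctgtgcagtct
Slco1a1: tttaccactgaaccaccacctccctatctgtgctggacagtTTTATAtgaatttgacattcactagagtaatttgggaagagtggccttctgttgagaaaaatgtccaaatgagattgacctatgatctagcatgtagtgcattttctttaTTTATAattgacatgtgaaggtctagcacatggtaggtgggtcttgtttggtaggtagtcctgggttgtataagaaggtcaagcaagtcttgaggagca
TATAAA, searched on both strands, was in the windows of Cyp2d9, Selenbp2 and Slco1a1 and in 13.6% of all windows. The letters TTC and GAA with 4 free bases between them, a spacing known for STAT6, were in the window of Hsd3b5 and in 6.95% of all windows. The FoxO letters GTAAACA and GTAAATA (3.65% and 3.04% of all windows) and the HNF6 letters ATCAAT (7.54%) were in 0 of the 7 windows. RefSeq starts can lie away from the GENCODE starts, as for Hsd3b5 and Cyp2d9, and Susd4 had 2 windows.

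Across the libraries, the genotype was not the only axis along which the 10 genes moved. Expressed as log2(FPKM + 1) minus the wildtype mean, the median of the 10 genes was -0.03, 0.87, 0.66 and 0.17 in knockouts 3, 9, 10 and 11, and -0.23, 0.19, -0.03 and 0.04 in wildtypes 1, 3, 10 and 12. Knockouts 9 and 10 were above every wildtype library, and knockouts 3 and 11 lay within their range. The median of 20 acute phase genes on the same scale was 2.52, 0.23, 0.23 and 2.13 in knockouts 3, 9, 10 and 11, and between -0.04 and 0.08 in wildtype libraries. The summed FPKM of the 6 neutrophil markers ran from 2.67 to 141.9 in knockout and from 1.58 to 4.89 in wildtype libraries, and of these markers Ngp and Camp were each listed at 0 in 3 of the 4 wildtype libraries. Knockouts 3 and 11 thus had the lower medians of the 10 genes within the knockout group and the high acute phase transcripts, although Moxd1 was highest in knockout 3 and Elovl3 in knockout 11. The part of the acute phase and neutrophil transcripts in these levels was not tested. Of the stellate cell markers, the median was -0.74 in knockout 3, -0.59 in knockout 11, 0.15 in knockout 9 and -0.10 in knockout 10. The summed FPKM of 7 endothelial markers was 28.4 to 50.7 in knockout and 50.1 to 66.4 in wildtype libraries, and its part in the differences was not tested either. Stab1 and Clec4g made up most of this sum, and the markers did not move alike. Their log2 differences were -1.02 for Stab1, -0.38 for Clec4g, -0.35 for Kdr, -0.12 for Stab2, -0.06 for Cdh5, 0.01 for Pecam1 and 0.12 for Lyve1. For the 10 pulse-dependent genes, all differences were above 0 without knockouts 3 and 11, the knockouts with the lower medians of these genes. This was so for 8 of 10 with all libraries, 8 with the length trend removed, 9 with median-ratio scaling and 10 with quantile normalization. The median over all genes tested moved too, from -0.08 to -0.01 without these knockouts, 0.01 with median-ratio scaling and -0.0055 with quantile normalization. Since the genes were picked with these values known, nothing is read from these counts.

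**Figure D2:**
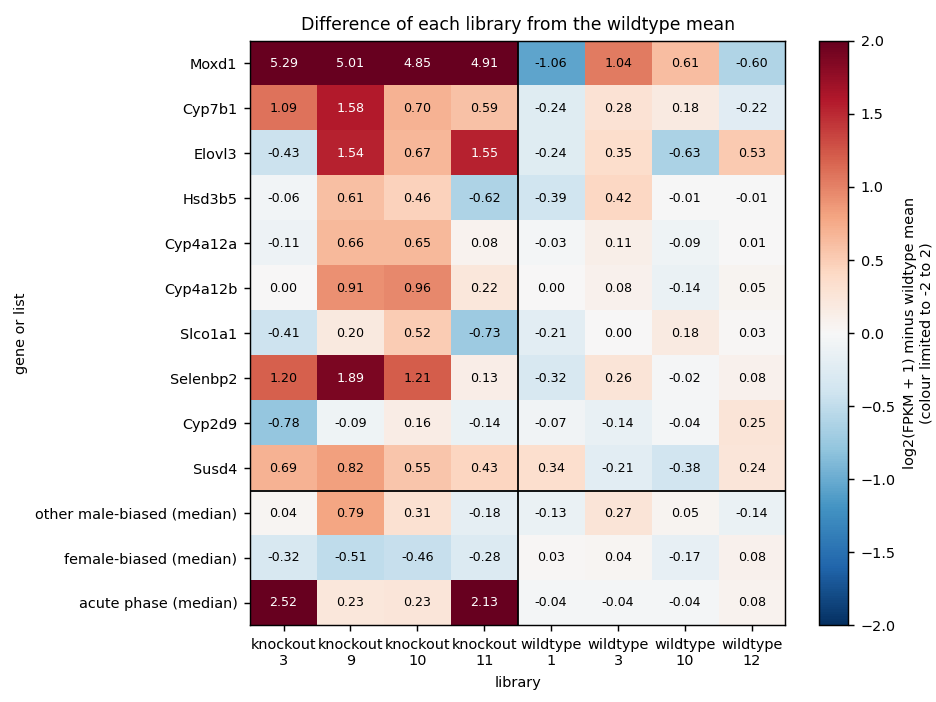
Log2(FPKM + 1) minus the wildtype mean for each of the 10 genes (rows) and for the medians of 3 gene lists, by library (columns, 4 knockout left and 4 wildtype right), with colour limited to -2 to 2. Moxd1 lies between 4.85 and 5.29 in all knockout libraries, while Hsd3b5 and Slco1a1 are above 0 in knockouts 9 and 10 and below 0 in knockouts 3 and 11.

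The rank order of the 10 levels differed between the groups mainly through Moxd1, Selenbp2 and Slco1a1. By mean FPKM the order in knockout was Cyp2d9, Cyp7b1, Hsd3b5, Selenbp2, Cyp4a12a, Elovl3, Moxd1, Slco1a1, Cyp4a12b and Susd4. In wildtype it was Cyp2d9, Cyp7b1, Hsd3b5, Cyp4a12a, Slco1a1, Elovl3, Selenbp2, Cyp4a12b, Susd4 and Moxd1. Neighbours from Hsd3b5 to Slco1a1 in the knockout order differed by less than the larger of their SDs, as did Cyp7b1 and Hsd3b5, Cyp4a12a and Slco1a1, and Elovl3 and Selenbp2 in wildtype.

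The relatives of these genes were other members of their gene families and, for Cyp7b1, also cytochrome P450 genes of sterol metabolism from other families. Of 35 relatives that passed the filter of 1 FPKM, 0 rose and 2 fell by limma at an adjusted p under 0.05, and at an unadjusted p under 0.05 there were 2 higher and 7 lower. Of all 10250 genes tested, 2.7% were higher and 11.7% lower at the adjusted threshold, and 7.77% and 22.7% at the unadjusted threshold. The median log2 difference of the 35 relatives was -0.09, beside -0.08 over all genes tested. Slco1a4, a female-biased transporter gene with 79.25% coding identity to Slco1a1, was at 11.4, 7.10, 10.7 and 11.98 FPKM in knockouts 3, 9, 10 and 11, against 18.6, 14.6, 24.2 and 19.3 FPKM in wildtypes 1, 3, 10 and 12. The groups did not overlap, and Slco1a4 fell by 0.84 on the log2 scale (SE 0.18, limma adjusted p = 0.0162). Without knockouts 3 and 11 its difference was -1.03. Cyp46a1, the gene of the cholesterol 24-hydroxylase, fell by 0.78 (SE 0.19, limma adjusted p = 0.0272) with overlapping groups and means of 0.613 ± 0.349 FPKM in knockout and 1.78 ± 0.595 FPKM in wildtype. That call was lost without knockouts 3 and 11 (limma adjusted p = 0.151) and without knockout 3, 9 or 11 or wildtype 1, 10 or 12 alone (0.0517 to 0.0747), as well as with the length trend removed (0.0652). Its difference without knockouts 3 and 11 was -0.66, and knockout 10, at 1.13 FPKM, stood apart from the other knockouts.

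Of the other relatives of Cyp7b1, Cyp7a1, the rate-limiting enzyme of bile acid synthesis, was at 82.3, 32.1, 19.2 and 69.0 FPKM in knockouts 3, 9, 10 and 11, against 20.8 to 31.8 FPKM in wildtype (log2 difference 0.74, SE 0.40, limma adjusted p = 0.247). Knockouts 3 and 11 carried the higher Cyp7a1 values, the reverse of Slco1a1, and the difference without them was -0.04. Cyp8b1, Cyp27a1 and Cyp39a1 of the same pathways had differences of -0.38, -0.19 and -0.33 and did not pass. Among the relatives of Elovl3, differences were 0.31 for Elovl1, 0.17 for Elovl2, 0.04 for Elovl5 and -0.05 for Elovl6, none past the threshold. The Hsd3b genes Hsd3b2, Hsd3b3, Hsd3b4, Hsd3b6 and Hsd3b7 lay between -0.30 and 0.26 and did not pass. Of these, Hsd3b4 has 95.17% coding identity to Hsd3b5 and averaged 7.40 ± 2.49 FPKM in knockout and 5.88 ± 1.26 FPKM in wildtype.

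The fatty acid hydroxylase genes Cyp4a10, Cyp4a14, Cyp4a31 and Cyp4a32, known as targets of the receptor PPAR-alpha, varied widely within groups. Cyp4a32 averaged 24.9 ± 16.5 FPKM in knockout and 55.6 ± 24.1 FPKM in wildtype (log2 difference -1.27, SE 0.43, limma adjusted p = 0.0811). Cyp4a14 was at 17.8 FPKM in knockout 11 and at most 2.73 FPKM in every other library. Cyp4f14 and Cyp4v3 had differences of -0.13 and 0.14. The Cyp2d genes Cyp2d10, Cyp2d11, Cyp2d12, Cyp2d22, Cyp2d26, Cyp2d34 and Cyp2d40 had differences between -0.34 and -0.0040 and did not pass, with Cyp2d11 at 93.32% coding identity to Cyp2d9. Slco1a6, Slco1b2, Slco2a1 and Slco2b1 had differences of 0.19, -0.41, 0.26 and 0.03, and Susd1 and Susd6 of -0.19 and 0.13. None of these passed.

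**Figure D3:**
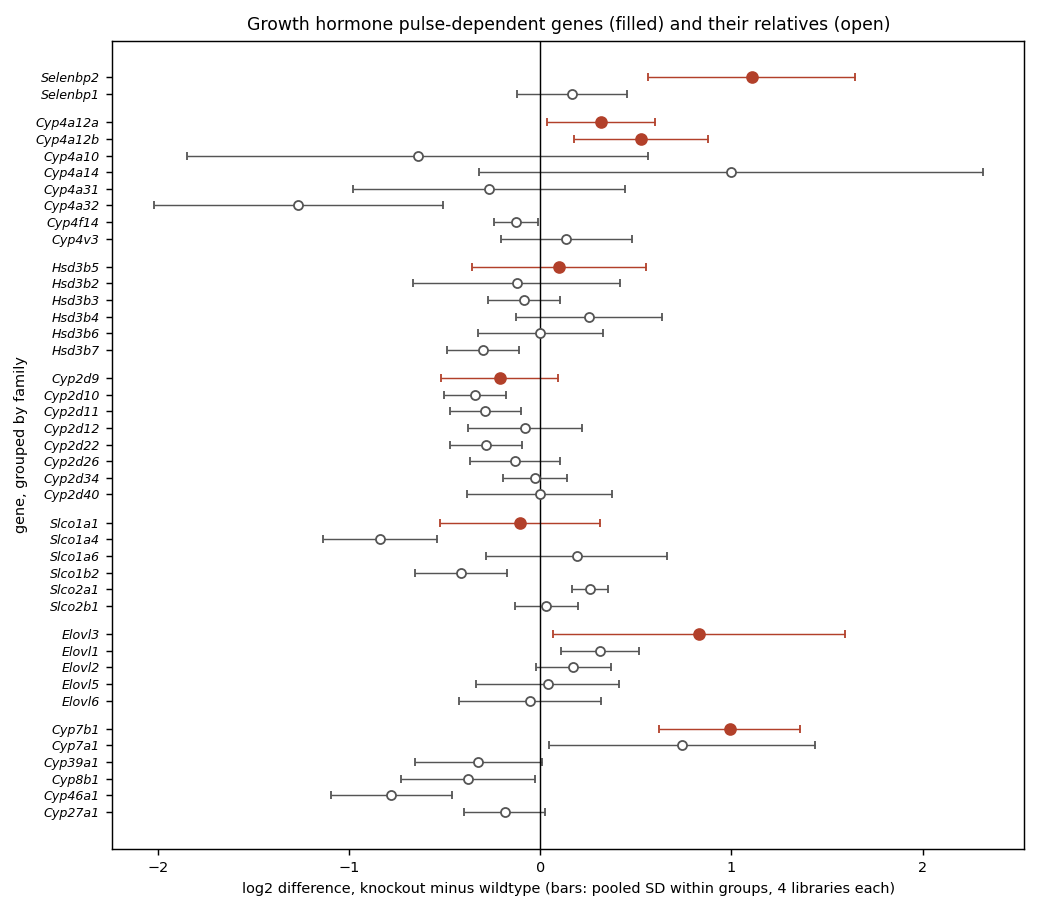
Log2 difference, knockout minus wildtype, on the log2(FPKM + 1) scale (horizontal axis) for 8 of the 10 genes (filled) and their relatives (open). Moxd1 and Susd4 are not drawn. Genes are grouped by family (vertical axis), with Cyp7b1 beside sterol P450 genes of several families. Bars are the pooled SD within groups, 4 libraries each. Selenbp2 at 1.11 stands right of Selenbp1 at 0.17, and Slco1a4 at -0.84 stands left of Slco1a1 at -0.11.

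Other genes known as male-biased in mouse liver were set beside these 10, from a list written with earlier results of these data known. Of 23 listed, 21 were tested, and Mup1 and Mup7 were listed at 0 in every library. By limma 4 rose and 1 fell (2.7% and 11.7% of all genes tested). At an unadjusted p under 0.05 there were 7 higher and 1 lower (7.77% and 22.7% of all genes tested). The median log2 difference was 0.35, beside -0.08 over all genes tested. C4a, a complement C4 homologue also known as Slp, rose by 1.49 (SE 0.24, limma adjusted p = 0.00613), with 217, 110, 91.8 and 128 FPKM in knockouts 3, 9, 10 and 11 and 40.3 to 57.5 FPKM in wildtype. C8b, a gene of the membrane attack complex, rose by 0.77 (SE 0.12, limma adjusted p = 0.00609), with 256 to 329 FPKM in knockout and 145 to 191 FPKM in wildtype. For both genes the knockout libraries were all above the wildtype libraries. C4a has a near-identical copy, C4b, and the split of reads between them is uncertain. Without knockouts 3 and 11 the differences were 1.13 for C4a and 0.78 for C8b.

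Egfr, the gene of the epidermal growth factor receptor, rose by 0.82 (SE 0.18, limma adjusted p = 0.0188), to 109 ± 25.3 FPKM in knockout, against 61.5 ± 13.1 FPKM in wildtype. Serpina1e, of the alpha-1-antitrypsin family with near-identical copies, rose by 1.27 (SE 0.29, limma adjusted p = 0.0191). Serpina1e was at 21965, 19332, 14341 and 18729 FPKM in knockouts 3, 9, 10 and 11, against 5061, 11312, 10712 and 5501 FPKM in wildtypes 1, 3, 10 and 12, so that wildtypes 3 and 10 stood above wildtypes 1 and 12, as they did for Moxd1. Its call was lost without knockouts 3 and 11 (limma adjusted p = 0.105), without knockout 3 alone (0.0510), without wildtype 1 (0.0572) and without wildtype 12 (0.0575), and that of Egfr without wildtype 1 (0.0627) or 12 (0.0545). Mup3, of the major urinary protein family whose copies share reads, fell by 0.70 (SE 0.16, limma adjusted p = 0.0198), with 9158 to 14445 FPKM in knockout and 18648 to 20030 FPKM in wildtype. Its call was lost without any 1 wildtype library (limma adjusted p of 0.0550 to 0.0676), with quantile normalization (0.171) and with the length trend removed (0.144). Without knockouts 3 and 11 the differences were 0.75 for Egfr, 1.13 for Serpina1e and -0.49 for Mup3. Per library the median of the 21 genes was 0.04, 0.79, 0.31 and -0.18 in knockouts 3, 9, 10 and 11, and -0.14 to 0.27 in wildtype, so here too knockout 9 was the highest.

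The female-biased list held 35 genes, of which 20 were tested and 14 were below 1 FPKM in every library. By limma 0 rose and 5 fell (2.7% and 11.7% of all genes tested). The count at an unadjusted p under 0.05 was 0 higher and 10 lower (7.77% and 22.7% of all genes tested). The median log2 difference was -0.29, beside -0.08 over all genes tested. Cyp3a16 fell by 0.70 (SE 0.12, limma adjusted p = 0.00655), to 9.35 ± 1.15 FPKM in knockout, against 15.8 ± 1.93 FPKM in wildtype. Cyp2a4, a steroid hydroxylase gene which, like Cyp3a16, has near-identical copies, was at 12.1, 14.4, 15.9 and 24.8 FPKM in knockouts 3, 9, 10 and 11, against 59.9, 22.8, 42.1 and 49.5 FPKM in wildtypes 1, 3, 10 and 12. The groups overlapped at knockout 11 and wildtype 3, and Cyp2a4 fell by 1.29 (SE 0.30, limma adjusted p = 0.0202). Its call was lost without knockout 3 or wildtype 1, 10 or 12 (limma adjusted p up to 0.0605). Fmo2, a flavin monooxygenase gene, fell by 0.75 (SE 0.14, limma adjusted p = 0.0104), and Acot3, a peroxisomal acyl-CoA thioesterase gene, by 1.597 (SE 0.33, limma adjusted p = 0.0135). Both genes were low, so the size of their fall depends on the pseudocount. Fmo2 averaged 0.914 ± 0.163 FPKM in knockout and 2.26 ± 0.609 FPKM in wildtype, and Acot3 0.934 ± 0.781 FPKM and 4.75 ± 2.29 FPKM. With a pseudocount of 0.1 the differences were -1.20 for Fmo2 and -2.69 for Acot3. Both calls were lost without knockouts 3 and 11 (limma adjusted p = 0.0629 and 0.0614). Without these libraries the differences were -0.62 for Cyp3a16, -1.39 for Cyp2a4, -0.68 for Fmo2 and -1.24 for Acot3. The fifth gene was Slco1a4, given above. Unlike the median of the 10 pulse-dependent genes, that of the female-biased list was below every wildtype library in all knockouts, at -0.32, -0.51, -0.46 and -0.28 in knockouts 3, 9, 10 and 11 and between -0.17 and 0.08 in wildtype.

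**Figure D4:**
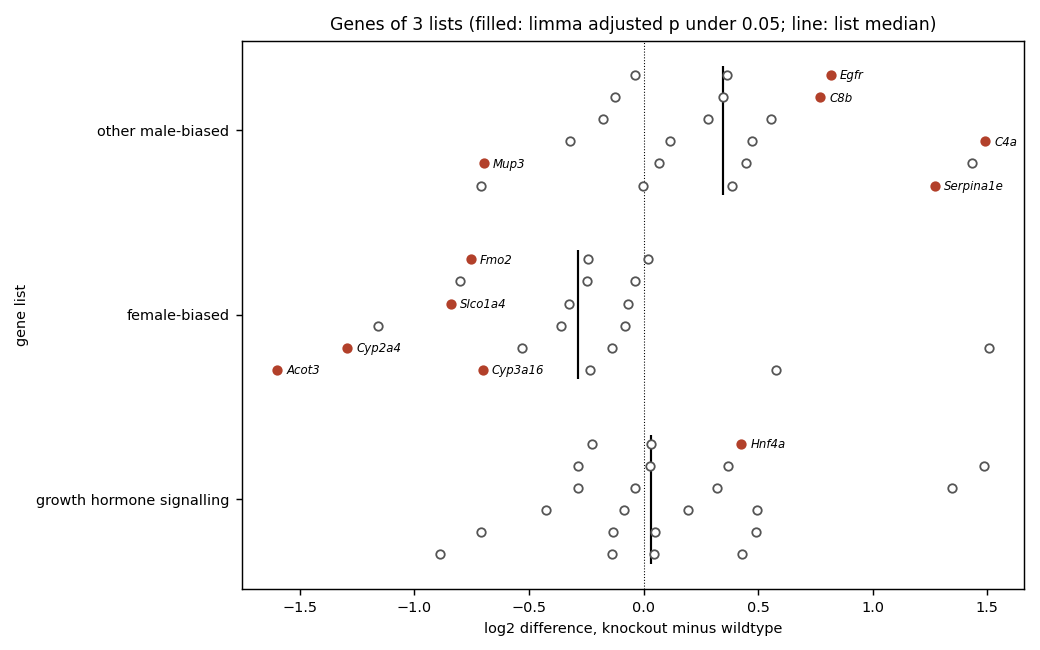
Log2 difference, knockout minus wildtype, on the log2(FPKM + 1) scale (horizontal axis) of tested genes from the other male-biased, female-biased and growth hormone signalling lists (vertical axis), filled where the limma adjusted p was under 0.05, with list medians as lines. Medians are 0.35, -0.29 and 0.03.

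For growth hormone signalling, transcripts of 25 listed genes were looked up, of which 23 were tested. Transcript levels do not measure the activity of the pathway. By limma 1 rose and 0 fell (2.7% and 11.7% of all genes tested). At an unadjusted p under 0.05, 5 were higher and 1 lower (7.77% and 22.7% of all genes tested). The median log2 difference was 0.03, beside -0.08 over all genes tested. Hnf4a, a nuclear receptor gene of hepatocyte identity that also takes part in sex-biased expression, rose by 0.43 (SE 0.12, limma adjusted p = 0.0494), to 87.8 ± 12.2 FPKM in knockout, against 64.8 ± 6.39 FPKM in wildtype. That call did not hold without knockouts 3 and 11 (difference 0.31, limma adjusted p = 0.227), in 7 of the 8 fits that left out 1 library (0.0771 to 0.121), with a pseudocount of 0.1 (0.0507) or with the length trend removed (0.0554). Ghr, the growth hormone receptor gene, was at 251 ± 28.9 FPKM in knockout and 266 ± 34.7 FPKM in wildtype (log2 difference -0.08, SE 0.12, limma adjusted p = 0.693). Stat5b was at 5.14 to 6.13 FPKM in knockout and 5.70 to 7.999 FPKM in wildtype (log2 difference -0.29, SE 0.11, limma adjusted p = 0.111). Igf1, the endocrine growth factor gene that STAT5b activates, was at 599 ± 64.5 FPKM in knockout and 578 ± 44.4 FPKM in wildtype (log2 difference 0.05, SE 0.11, limma adjusted p = 0.798). None of Ghr, Stat5b and Igf1 passed the test.

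Genes that respond within a single pulse differed widely between libraries of 1 genotype. Cish, a feedback inhibitor gene that STAT5b induces, was at 22.6, 1.01, 40.02 and 2.83 FPKM in knockouts 3, 9, 10 and 11, against 1.94, 4.13, 4.07 and 0.58 FPKM in wildtypes 1, 3, 10 and 12. Knockouts 3 and 10 were above every wildtype library, and knockouts 9 and 11 lay within the wildtype range. Onecut1, the gene of HNF6, had the same knockout libraries on top, at 16.6, 7.16, 28.5 and 3.70 FPKM in knockouts 3, 9, 10 and 11, against 1.96 to 6.73 FPKM in wildtype. Socs2, another feedback inhibitor gene, was at 8.21, 6.27, 21.7 and 2.22 FPKM in knockouts 3, 9, 10 and 11, against 10.999, 35.2, 13.8 and 7.93 FPKM in wildtypes 1, 3, 10 and 12. In wildtype its highest library was number 3, which also led for Cish and Onecut1. Bcl6, which STAT5b represses, was at 2.11, 21.3, 5.48 and 2.37 FPKM in knockouts 3, 9, 10 and 11, against 13.5, 6.78, 3.59 and 19.9 FPKM in wildtypes 1, 3, 10 and 12. Its highest knockout library was number 9, where Cish was lowest, and its highest wildtype library was number 12, where Cish was also lowest. Other libraries differed from this: knockout 11 was low in both genes, and knockout 10, the highest for Cish, had more Bcl6 than knockouts 3 and 11. Cux2, a gene of the female liver, was at 0.0722 to 0.389 FPKM in knockout and 0.0495 to 0.163 FPKM in wildtype and was not tested. The log2 differences of Cish (1.49, SE 0.89), Onecut1 (1.35, SE 0.52), Socs2 (-0.89, SE 0.58) and Bcl6 (-0.71, SE 0.65) did not pass (limma adjusted p of 0.119 to 0.515). Without knockouts 3 and 11 these were 1.45, 1.73 and -0.27 for Cish, Onecut1 and Socs2, and the sign of Bcl6 turned, to 0.24. The median of the 10 pulse-dependent genes was high in knockouts 9 and 10, which had the lowest and the highest Cish of the knockout group.

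**Figure D5:**
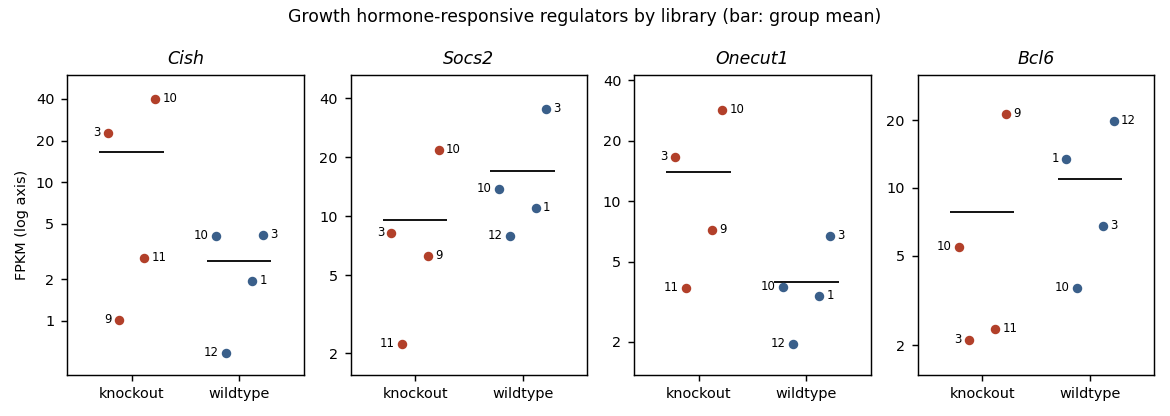
FPKM on log axes of Cish, Socs2, Onecut1 and Bcl6 in the 4 knockout and 4 wildtype libraries; points carry the library number and lines are group means. Cish runs from 1.01 to 40.02 FPKM within the knockout group and from 0.58 to 4.13 FPKM within wildtype.

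To find genes with the most similar pattern apart from genotype, the group means of log2(FPKM + 1) were taken away and Pearson's r over the 8 libraries was computed for all other tested genes. For Moxd1 the closest were Tff1 (r = 0.96), Gm27867 (0.95), Serpina1e (0.95), Zbtb42 (0.95) and A2ml1 (0.94), and 4 of 10240 genes had an r of at least 0.95. These values rest mostly on the wildtype libraries, where Moxd1 varied, and share library and depth. Gm27867 was listed at 0 in all knockout libraries and in wildtypes 1 and 12. Serpina1e is the male-biased gene described above. The log2 differences between the genotypes were 0.12 for Tff1, 0.22 for Zbtb42, -1.84 for Gm27867 and -0.55 for A2ml1. For the mean standardized pattern of the 10 genes the closest were B230354K17Rik (0.99), Sec22b (0.99), Gm26718 (0.99), Ccdc126 (0.99) and Ift20 (0.98), and 59 genes reached 0.95. The log2 differences of B230354K17Rik and Sec22b between the genotypes were 0.05 and -0.07, and those of Gm26718, Ccdc126 and Ift20 were -0.34, -0.30 and -0.50. Only Ift20 passed (SE 0.095, limma adjusted p = 0.0105), and without knockouts 3 and 11 its difference was -0.38. Sec22b, a vesicle transport gene, was at 9.88, 16.0, 12.9 and 9.68 FPKM in knockouts 3, 9, 10 and 11, against 11.6, 13.7, 12.1 and 12.7 FPKM in wildtypes 1, 3, 10 and 12. The pattern thus had knockouts 9 and 10 high and knockouts 3 and 11 low.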

How the data were processed

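RNA-seq of mouse liver, 4 knockout and 4 wildtype libraries, was used as deposited. The submitters' processing notes name TopHat2 2.1.0, HTSeq, Cufflinks 2.2.1 and build mm10, with no role or order. The deposited table holds FPKM from the authors, a unit read from the values and these tools. As these are not counts, limma 3.58.1 (R 4.3.3) was run on log2(FPKM + 1) for the 10250 genes averaging 1 FPKM or more. Genotype was the only term, variances were moderated with a mean trend, tests were two-sided and p-values were adjusted by Benjamini-Hochberg with a threshold of 0.05. The added 1 shrinks differences of low genes. Groups were taken from the genotype labels. The members, the gene lists and the rules were chosen with earlier results of these data known.

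The genes named are the 10 members, up to 5 genes with the smallest adjusted p of each list, Stat5b, Ghr, Igf1, Bcl6 and Cux2, relatives of at least 1 FPKM, sex-linked genes, leading genes of the marker lists, and the 5 genes most like Moxd1 and the members' mean. Cish, Socs2, Onecut1, Camp and the endothelial markers were named after their values were seen. Names matched 24807 of 25690 genes in GENCODE M21 (mm10), which also gave coordinates and transcripts. Promoters came from RefSeq, for 6 members, with 6 motifs searched. Depth was estimated from the FPKM of a single fragment, so precision is known only roughly. Alternatives were another pseudocount, other filters, scalings, variance models, a replicate block, libraries left out and a length trend (loess, span 0.5) removed. The fit was also run on simulated data with independent errors and the same spread in both groups. Spreads in these libraries could be unequal, as for Moxd1, so that run does not vouch for the calls given here.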

Additional observations from a re-analysis of the deposited data

Results flagged for a closer look

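In 3 of 76 groups of 4 libraries, over 38 genes examined, 1 library lay far from the others by Dixon's criterion, which chance meets in about 1 in 20 groups. Hnf4a was at 69.7 FPKM in knockout 10, against 92.1 to 95.8 FPKM in the other knockouts. Cyp46a1 was at 1.13 FPKM in knockout 10, against 0.397 to 0.480 FPKM in the other knockouts. Acot3 was at 8.18 FPKM in wildtype 1, against 3.42 to 3.85 FPKM in the other wildtypes.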

How the results depend on the processing

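Of the 10 pulse-dependent genes, 7 kept the sign of their difference under every alternative tried. The exceptions were Hsd3b5 (-0.072 to 0.34 over fits without 1 library, against 0.10), Slco1a1 (0.0015 with median-ratio scaling, 0.14 with quantile normalization, 0.36 without knockouts 3 and 11, and -0.31 to 0.10 without 1 library, against -0.11) and Cyp2d9 (0.13 with quantile normalization and 0.032 without knockouts 3 and 11, against -0.21). The count of genes called higher, 277, became 151 with no filter on low values, 485 with median-ratio scaling, 470 with quantile normalization and 102 (without wildtype 1) to 360 (without knockout 9) without 1 library. The count called lower, 1195, became 668 with no filter, 720 and 652 with those scalings, 656 without knockouts 3 and 11, 397 with the length trend removed (371 higher) and 599 to 1294 without 1 library. The title numbers 3 and 10 occur in both groups. With a replicate block on the title numbers, the genotype difference rests only on the libraries numbered 3 and 10. Few degrees of freedom remain, so this fit has little power and its lost calls say little. It left 1 gene called higher and 1 lower, with 0 calls in each list and all 12 named calls lost. With no filter on low values C4a, C8b and Cyp3a16 stayed past the threshold and the other 9 named calls did not. The deviations of same-numbered libraries had correlations of -0.00791 and 0.0224. The labels do not say what a shared number means, and these values cannot settle whether such libraries were paired.

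For the lists, other male-biased genes higher (4) were 2 with no filter and 2 to 5 without 1 library, and lower (1) were 0 with no filter, quantile normalization or the length trend removed and 0 to 1 without 1 library. Female-biased genes lower (5) were 2 with no filter, 3 at a mean of at least 5 FPKM and 4 to 6 without 1 library, and higher (0) were 0 to 1, the 1 without knockout 9. Growth hormone signalling genes higher (1) were 0 with a pseudocount of 0.1, no filter, knockouts 3 and 11 left out or the length trend removed, 2 with quantile normalization and 0 to 2 without 1 library. The cause was not tested. FPKM give no counts, so low genes such as Cux2 have no interval.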
